A study of Mus musculus with 15 samples.

Results

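The interferon-stimulated antiviral genes described here were 34 genes given by symbol, covering the transcription factors, nucleic acid sensors and effector proteins that interferon switches on. Of these, 32 were measured among the 34714 genes of the deposited table; Mx1 and Mx2 were not analysed here. RNA from whole mouse aorta was sequenced in 3 groups of 5 libraries, all of wild-type genotype. The AngII+RvE1 group received angiotensin II, a peptide that constricts vessels and raises blood pressure, infused at 750 ng per kg per minute, together with intraperitoneal resolvin E1, a lipid mediator made from eicosapentaenoic acid, at 2 µg per kg per day. The AngII group received the same infusion without resolvin E1, and the Sham group received neither agent as far as the labels say. The labels give no strain, age, sex or length of treatment, and do not say that each library came from its own animal, so p-values measure only the spread between these libraries.

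Type I interferons bind the receptor IFNAR on nearly every nucleated cell and activate the kinases JAK1 and TYK2. These phosphorylate STAT2, which acts with IRF9 in a complex called ISGF3. The complex binds the interferon-stimulated response element, a repeat of GAAA separated by a short spacer, and switches on genes whose products sense viral RNA, degrade RNA, block translation or hold virus particles at the cell surface. Macrophages, endothelial cells and smooth muscle cells of the vessel wall can all respond.

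Promoters of the genes were examined for that element because it is the sequence through which the family is known to be switched on. RefSeq promoters on GRCm38.p6, each running from 250 bases before to 50 bases after a transcript start, were at hand for 25 of the 34 genes. The letters GAAANNGAAA, searched on both strands as GAAANNGAAA or TTTCNNTTTC with overlapping matches counted, were found in 12 of the 25 genes (48.0%), against 1079 of all 27025 genes with a promoter in the table (3.99%). At least 2 matches were found in 5 of the 25, against 0.266% of all genes. Those 5 promoters are printed below as the bases just before the transcript start, on the strand of the gene and 5′ to 3′, with the matches in capitals. The Isg15 stretch lies at chr4:156200819-156200968 on the minus strand, Ifit1 at chr19:34640739-34640888 and Ifit3 at chr19:34583369-34583528 on the plus strand, and Oas1a at chr5:120907526-120907675 and Bst2 at chr8:71537473-71537622 on the minus strand.
Isg15: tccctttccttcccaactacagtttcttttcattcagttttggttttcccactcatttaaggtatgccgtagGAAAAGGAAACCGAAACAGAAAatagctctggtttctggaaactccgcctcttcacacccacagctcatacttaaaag
Ifit1: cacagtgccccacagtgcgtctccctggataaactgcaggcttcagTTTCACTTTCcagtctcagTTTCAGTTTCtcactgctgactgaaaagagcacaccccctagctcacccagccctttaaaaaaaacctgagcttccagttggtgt
Ifit3: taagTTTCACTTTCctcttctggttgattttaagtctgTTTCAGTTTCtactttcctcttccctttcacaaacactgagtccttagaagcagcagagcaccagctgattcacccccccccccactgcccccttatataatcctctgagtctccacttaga
Oas1a: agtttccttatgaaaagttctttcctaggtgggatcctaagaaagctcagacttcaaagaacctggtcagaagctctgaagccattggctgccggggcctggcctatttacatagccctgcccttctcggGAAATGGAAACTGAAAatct
Bst2: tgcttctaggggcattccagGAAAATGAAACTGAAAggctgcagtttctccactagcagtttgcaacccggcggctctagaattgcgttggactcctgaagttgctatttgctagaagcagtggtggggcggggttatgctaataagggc
In Isg15 3 matches ran into one another, and in Oas1a and Bst2 2 matches shared a GAAA block. The median log2 difference of the 11 tested members with a match was 0.89 for AngII against Sham, beside 0.73 for the 12 tested members with a promoter and no match. For AngII+RvE1 against AngII the medians were -0.57 and -0.69. Irf7 and Irf9 had no match in these windows, and a match is only a run of letters.

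The values were taken as FPKM, a measure scaled to gene length and library depth, and compared as log2(FPKM + 1), a scale that understates changes of low genes. Read depth is unknown; library sums ran from 385846 to 514281. Genes at 1 FPKM or more in at least 5 libraries were tested, 12603 in all. Of the 32 measured members, 25 reached 1 FPKM in all 15 libraries, 5 (Zbp1, Oas1a, Oas2, Ifit1 and Ifi44) in 5 to 14 libraries, and Oas3 and Oasl1 in fewer than 5, so that 30 were tested. Of these Oas2 and Ifi44 reached the required 5 libraries only with the AngII libraries counted. Smooth muscle markers of the labelled tissue were present in every library, with a summed level of 5323 to 9583 FPKM in AngII+RvE1, 1159 to 3323 in AngII and 1716 to 12054 in Sham, and fat and heart muscle transcripts were present too: adipocyte markers summed to 6205 to 17813 FPKM over the 15 libraries, and cardiac muscle markers to 9.20 to 2138. In bulk tissue, fewer cells of a type and less RNA per cell cannot be told apart.

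AngII libraries 3, 4 and 5 stood apart from the other 12 in B and T cell transcripts. All 7 B cell markers, all 8 T cell markers and 7 of 10 macrophage markers had their 3 highest values of the 15 libraries in these 3. The summed B cell markers were 4.35 to 7.50 FPKM in AngII+RvE1, 734, 226 and 1125 FPKM in AngII libraries 3, 4 and 5, 8.95 and 3.84 FPKM in AngII libraries 1 and 2, and 2.59 to 38.2 FPKM in Sham. T cell markers summed to 1.74 to 9.37 FPKM in AngII+RvE1, 2.50 to 220 in AngII and 0.944 to 32.6 in Sham. Macrophage markers summed to 165 to 216 FPKM in AngII+RvE1, 174, 349, 1230, 418 and 593 in AngII libraries 1 to 5 and 137 to 186 in Sham. For these, AngII library 2 also lay above every library of the other groups and nearer to library 4 than to them. No marker of these 3 lists was at 0 in every library.

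The antiviral genes were high in the same libraries. How many of all genes share this was not counted, so the counts below stand without that share. AngII libraries 3, 4 and 5 also had more genes at 1 FPKM or more. These were 12996, 12882 and 12894, against 11970 and 12016 in AngII libraries 1 and 2. In 31 of the 32 measured members, libraries 3, 4 and 5 were the 3 highest of the 5 AngII libraries, and in 26 they were the 3 highest of all 15. The highest value of the 15 lay in AngII library 3 for 21 members, in library 5 for 9 and in library 4 for 2. AngII library 1 exceeded every Sham library in 4 members and library 2 in 13, against 32, 29 and 29 for libraries 3, 4 and 5. Over the 32 members, the mean log2 level per library ran from 2.11 to 2.37 in AngII+RvE1 (mean 2.26 ± 0.10), from 2.35 to 3.62 in AngII (2.99 ± 0.55) and from 1.97 to 2.58 in Sham (2.16 ± 0.25, SD, n = 5 each). Sham library 4 held the highest Sham value of 25 members and lay above AngII library 1 in 27. The part of lymphocytes or macrophages in the level of these genes was not tested. Fits without libraries 3, 4 and 5, and with lymphocyte markers as a covariate, are given below as descriptions. Leaving out these libraries removes the highest AngII values of 31 members, so the differences shrink whatever the cause. The covariate is itself highest in the same libraries, and macrophage markers entered neither fit.

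**Figure D1:**
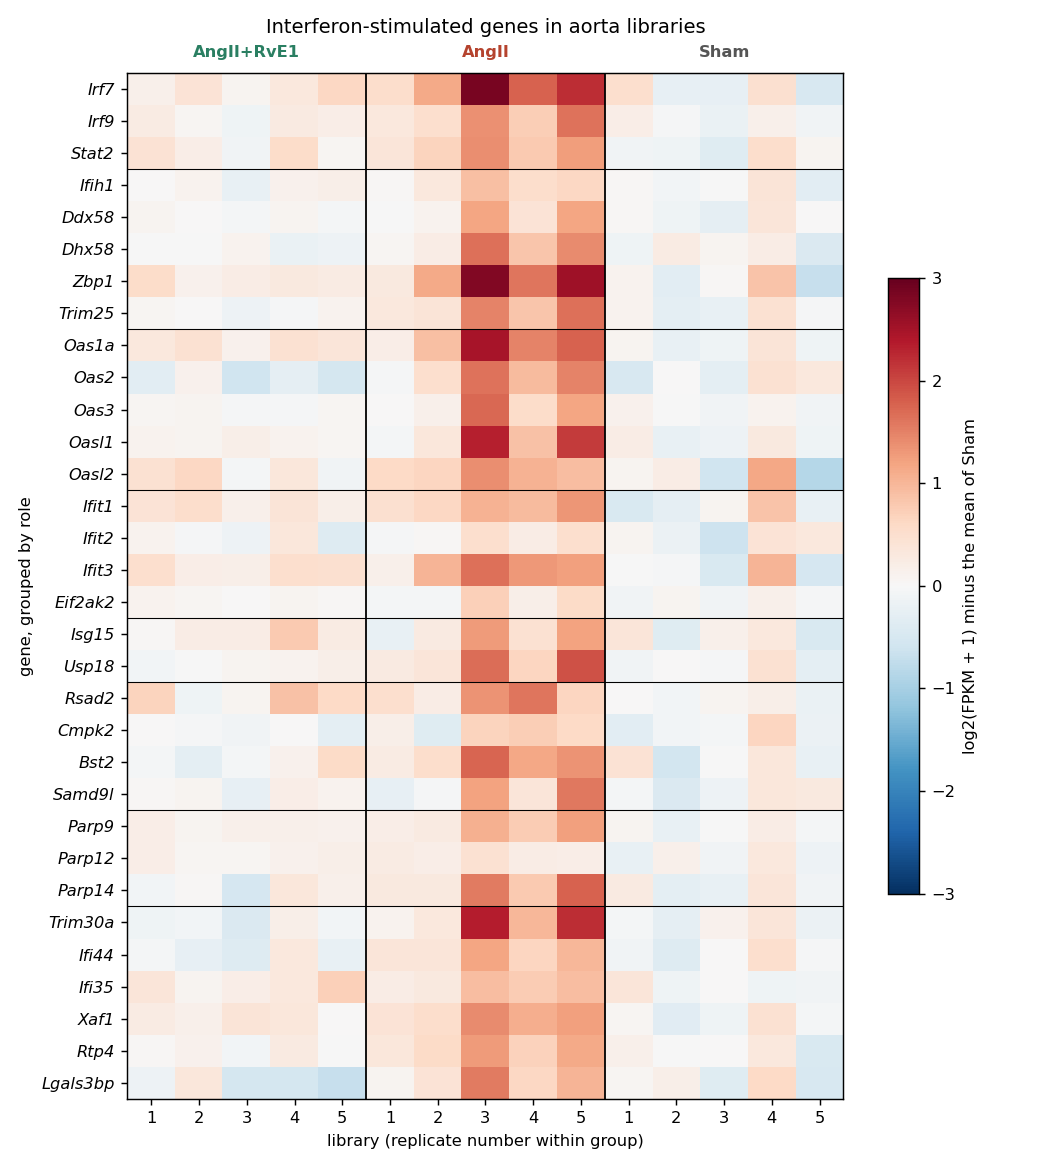
Level of each of the 32 measured genes (rows, grouped by role) in each of the 15 libraries (columns), as log2(FPKM + 1) minus the mean of the Sham libraries; red is above and blue below Sham. The red cells gather in AngII libraries 3, 4 and 5, while AngII library 1 and the AngII+RvE1 libraries are close to Sham.

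**Figure D2:**
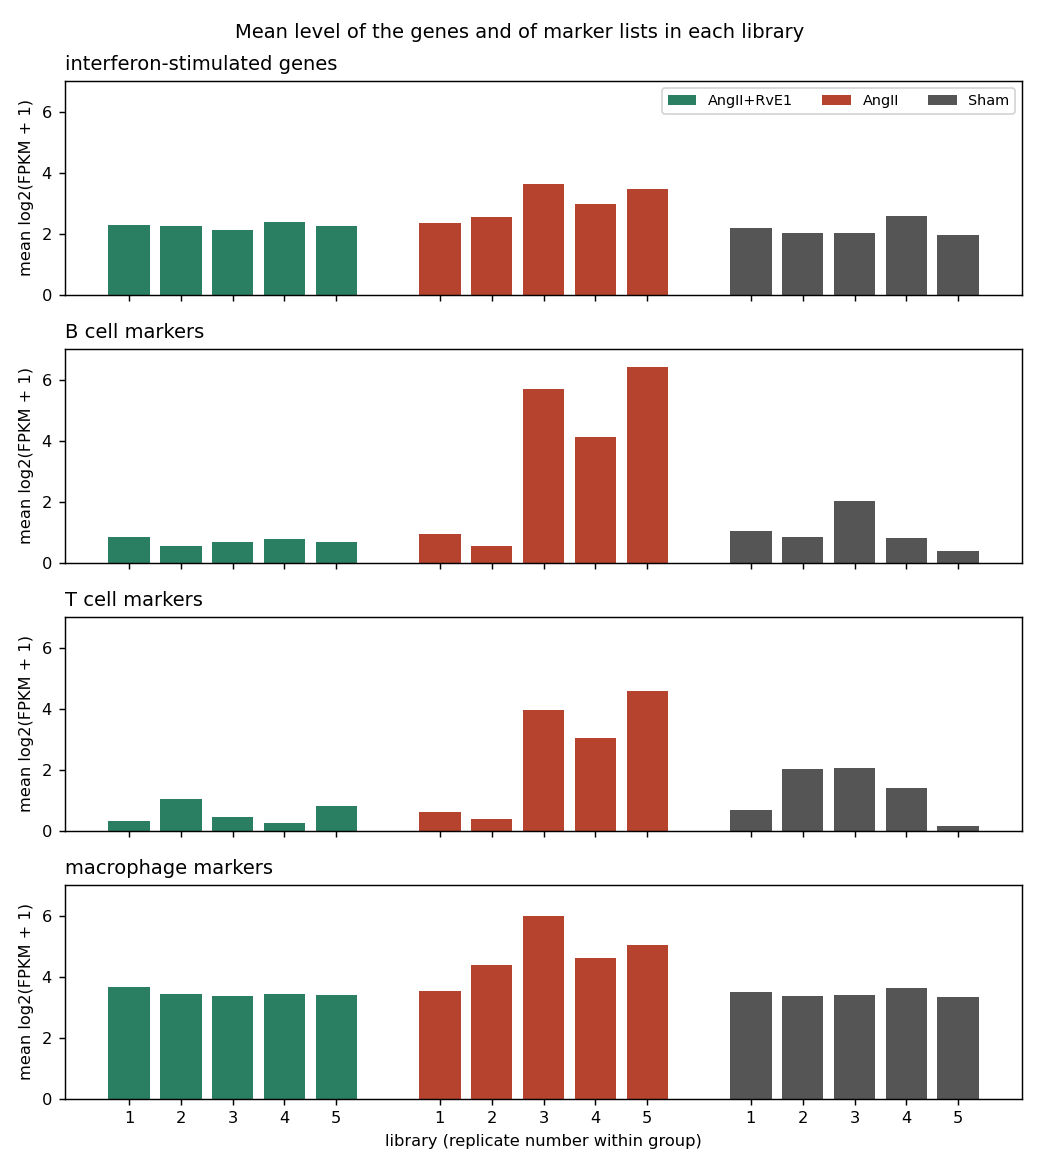
Mean log2(FPKM + 1) per library of the 32 antiviral genes, 7 B cell markers, 8 T cell markers and 10 macrophage markers; each bar is 1 library. AngII libraries 3, 4 and 5 are highest in all 4 panels, and AngII libraries 1 and 2 have lymphocyte markers at the level of the other groups.

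The comparison of AngII with Sham asks whether angiotensin II infusion changes these genes in the aorta. Of the 30 tested members 10 rose, 0 fell and 20 did not pass the test. The transcription factor genes Irf7, Irf9 and Stat2, the sensor genes Zbp1 and Trim25, and the effector genes Oas1a, Ifit1, Parp9, Xaf1 and Rtp4 were the 10. All 30 differences were positive, with a median of 0.88 on the log2 scale and a range from 0.25 (Ifit2) to 1.70 (Irf7), beside a median of 0.11 over all 12603 genes. The 10 calls were 33.3% of the members tested, and 2.36% of all genes tested were called higher. In 4 members every AngII library lay above every Sham library (Irf7, Irf9, Rsad2 and Rtp4), as in 2.92% of all genes. Calls were made with limma at an adjusted p (Benjamini-Hochberg over all genes) under 0.05, and 26 members had an unadjusted p under 0.05, as had 19.7% of all genes in the same direction.

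The number of calls moved with single libraries, over all genes as in the members, while the size of the differences moved less. Without AngII library 1 or 2, 22 or 20 members rose, beside 9.12% and 10.8% of all genes called higher. Without AngII library 3, 4 or 5, 1, 0 or 0 members rose, beside 0.664%, 0.457% and 0.488% of all genes. Without Sham library 1, 2 or 5 the count was 6, 0 or 0, and the AngII+RvE1 libraries, which enter through the shared estimate of spread, gave 6, 6 and 5 when library 1, 3 or 4 was dropped. Over all 15 such fits the median of the members lay between 0.73 and 0.99, and all 30 differences stayed positive. In the 4 fits with 0 calls the median was 0.73 to 0.85, and only 57 to 77 of all genes were called higher, against 298 with all libraries. In those 4, 23 to 25 members kept an unadjusted p under 0.05 in limma, as did 13.8% to 18.4% of all genes.

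With AngII libraries 3, 4 and 5 left out together, the 2 remaining AngII libraries differed from Sham in the same direction in 27 of 30 members, with a median of 0.30. By limma 0 passed the adjusted threshold (lowest adjusted p = 0.480) and 6 had an unadjusted p under 0.05, as had 4.33% of all genes in this direction. These were Irf7 (log2 difference 0.83, unadjusted p = 0.0115 in limma, higher in 2 of 2 AngII libraries than in any Sham library), Irf9, Stat2, Oas1a, Xaf1 and Rtp4. For Irf7 the margin was small, at 7.72 FPKM in AngII library 1 and 7.57 in Sham library 1. The libraries left out held the 3 highest AngII values of 31 of the 32 measured members, so these p-values are only descriptions. With the mean level of B and T cell markers as a covariate, 0 passed in limma, 16 had an unadjusted p under 0.05 (7.77% of all genes) and the median was 0.46.

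The question put by setting AngII+RvE1 beside AngII is which of these genes resolvin E1 changes under the infusion. Of the 30 tested members 13 fell, 0 rose and 17 did not pass the test. The transcription factor genes Irf7 and Irf9, the sensor genes Zbp1, Trim25 and Dhx58, and the effector and other induced genes Oas2, Bst2, Parp14, Trim30a, Ifi44, Xaf1, Rtp4 and Lgals3bp were the 13. All 30 differences were negative, from -1.39 (Irf7) to -0.14 (Parp12) with a median of -0.70, beside -0.11 over all genes. The 13 calls were 43.3% of the members tested, and 4.31% of all genes were called lower. In 7 members every AngII+RvE1 library lay below every AngII library (Irf9, Trim25, Usp18, Parp9, Ifi44, Xaf1 and Rtp4), as in 5.23% of all genes. An unadjusted p under 0.05 was reached by 22 members, and in the same direction by 19.1% of all genes. Without Oas2 and Ifi44, which entered the test only through AngII, the group where they are high, 11 of 28 members fell and the median was -0.69. The same AngII libraries enter this comparison and the one with Sham, so high values in AngII move both.

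The count of calls moved with single libraries here too. Without AngII library 1, 20 members fell, beside 9.27% of all genes called lower. Without AngII library 3, 4 or 5 the count was 0, 3 or 0, beside 1.19%, 1.40% and 0.408% of all genes. Dropping AngII+RvE1 libraries 1 to 5 in turn left 0, 6, 0, 1 and 0 calls, and without Sham library 2 or 5 it was 8 each time. All 30 differences stayed negative in the 15 fits, with a median between -0.85 and -0.57. In the 5 fits with 0 calls the median was -0.73 to -0.57, and 51 to 175 of all genes were called lower, against 543 with all libraries. In those 5, 18 to 22 members kept an unadjusted p under 0.05 in limma, as did 12.2% to 16.5% of all genes. Without AngII libraries 3, 4 and 5 together, 24 of 30 differences were negative with a median of -0.23, 0 passed in limma (lowest adjusted p = 0.430) and 0 had an unadjusted p under 0.05. With the lymphocyte covariate 0 passed in limma, 3 had an unadjusted p under 0.05 (4.36% of all genes did as higher and 5.32% as lower) and the median was -0.31.

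AngII+RvE1 was also set against Sham, to see how far the infused and treated aortas lay from the controls. Of 30 members 0 were called in limma and 0 had an unadjusted p under 0.05, beside 0.0238% of all genes called and 6.69% at an unadjusted p under 0.05 in either direction. The differences ran from -0.32 (Oas2) to 0.42 (Rsad2), 21 positive and 9 negative, with a median of 0.06 and a median SE of 0.24. Irf7 differed by 0.31 (SE 0.35, limma adjusted p = 0.959). These SE share their estimate of spread with the AngII libraries. With only the 2 groups fitted, the median SE was 0.16 and 0 members were called in limma. In that fit 3 members had an unadjusted p under 0.05, beside 5.54% of all genes as higher and 1.99% as lower. With the lymphocyte covariate 4 members had such a p, beside 6.33% of all genes as higher and 2.22% as lower, and 0 were called. There 26 differences were positive and 4 negative, with a median of 0.17. Without Sham library 4, which held the highest Sham value of 25 members, 26 were positive and 4 negative, with a median of 0.16. In that fit 3 members had an unadjusted p under 0.05 in limma, beside 4.15% of all genes as higher and 1.16% as lower, and 0 were called. Without Sham library 2, 3 or 5, 19 were positive and 11 negative.

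**Figure D3:**
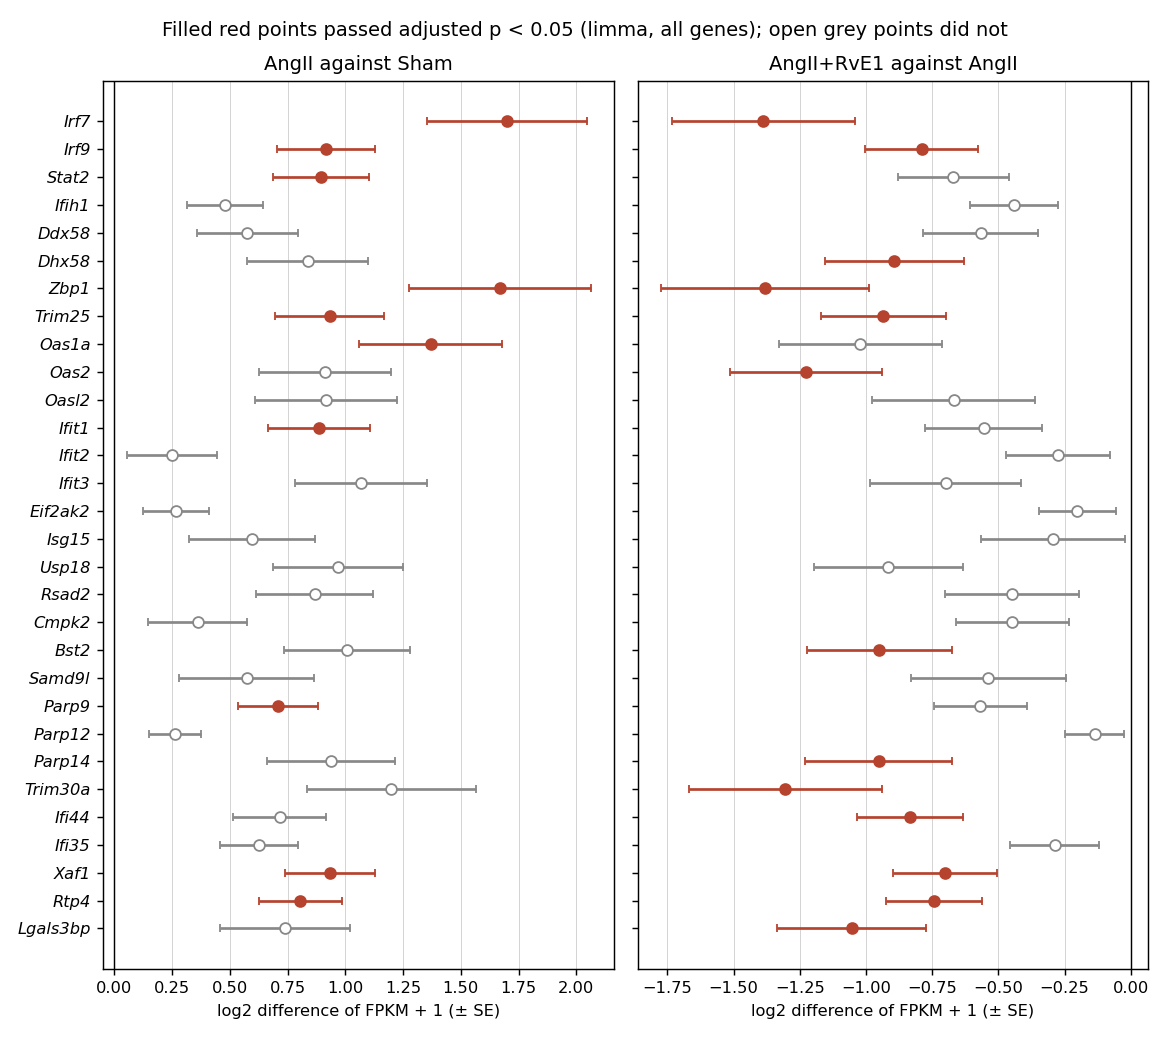
Log2 difference of FPKM + 1 with its SE for the 30 tested genes, AngII against Sham on the left and AngII+RvE1 against AngII on the right; filled red points passed an adjusted p under 0.05. Every point on the left is above 0 and every point on the right below 0, with Irf7 and Zbp1 farthest out on both sides.

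**Figure D4:**
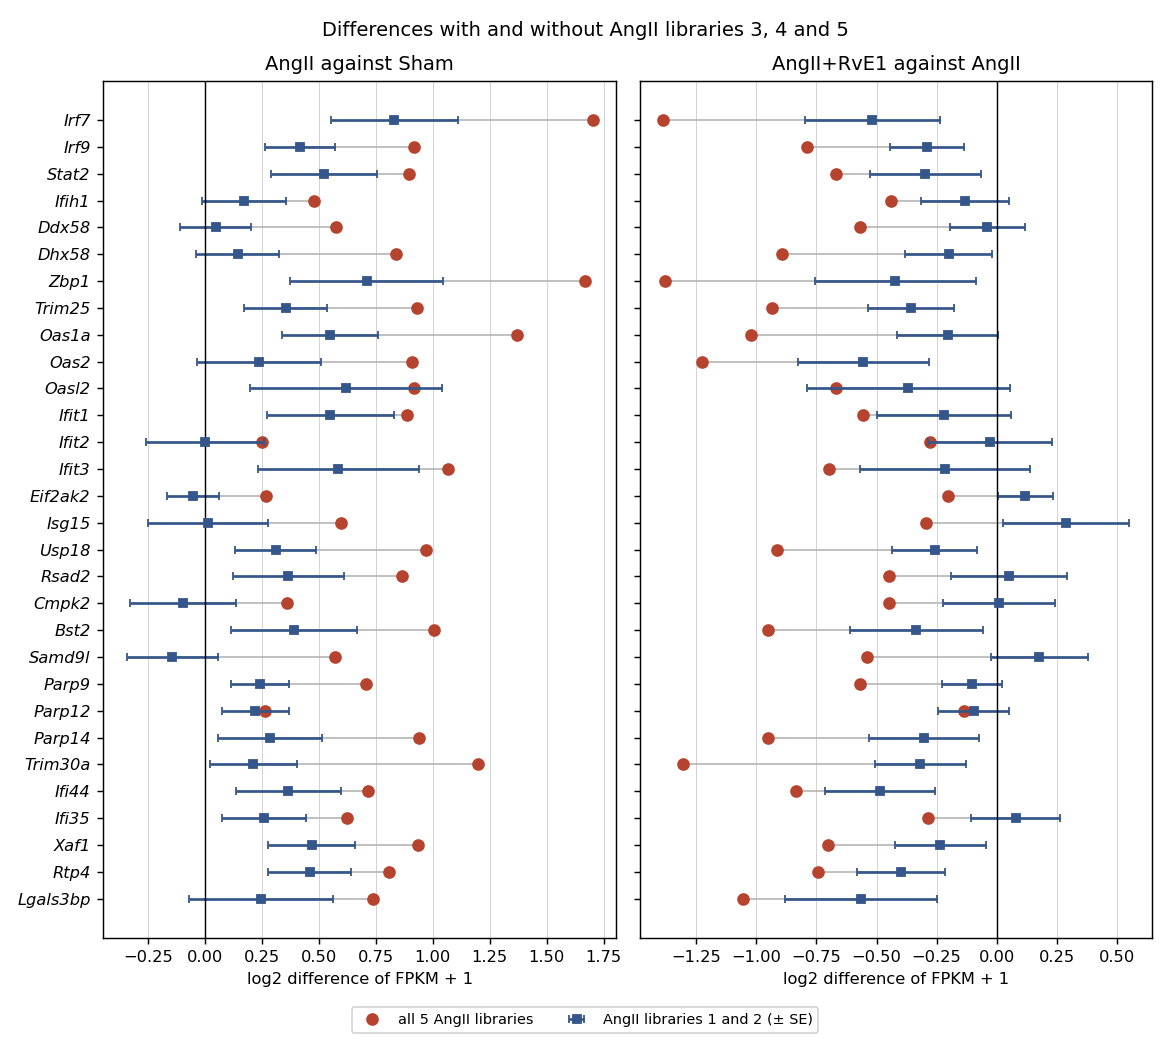
Log2 difference of the 30 tested genes with all 5 AngII libraries (red circles) and with AngII libraries 1 and 2 alone (blue squares, ± SE). The squares lie nearer to 0 than the circles in both comparisons, with medians of 0.30 and -0.23. The libraries left out were the 3 highest of AngII in 31 of the 32 measured members, so a move towards 0 follows from that choice.

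The 3 transcription factor genes all rose in AngII against Sham, and 2 of 3 fell in AngII+RvE1 against AngII. Irf7, which encodes the factor that amplifies the type I interferon response and lies on chromosome 7 from 141263183 to 141266499 (GRCm38.p6), was 5.81, 7.09, 5.44, 6.52 and 8.31 FPKM in AngII+RvE1 libraries 1 to 5, 7.72, 12.5, 43.0, 19.8 and 27.3 in AngII and 7.57, 4.14, 4.15, 7.48 and 3.34 in Sham. All AngII libraries exceeded all Sham libraries, and AngII library 1 alone fell within the AngII+RvE1 range. The means with their SD (n = 5 each) were 6.63 ± 1.13 FPKM in AngII+RvE1, 22.1 ± 13.9 in AngII and 5.34 ± 2.03 in Sham, with log2 differences of 1.70 for AngII against Sham (SE 0.35, limma adjusted p = 0.0225) and -1.39 for AngII+RvE1 against AngII (adjusted p = 0.0293). Irf9, the DNA-binding subunit of ISGF3, was 9.33, 8.07, 6.96, 9.55 and 9.03 FPKM in AngII+RvE1, 9.91, 11.5, 21.6, 13.6 and 26.2 in AngII and 9.03, 7.50, 6.56, 8.73 and 7.08 in Sham. The AngII values lay above both other groups without overlap, at log2 differences of 0.92 (limma adjusted p = 0.0348) from Sham and -0.79 (adjusted p = 0.0376) for AngII+RvE1 against AngII. Stat2, its partner in the complex, was 6.06, 5.07, 3.87, 6.64 and 4.47 FPKM in AngII+RvE1, 5.80, 7.37, 12.8, 8.05 and 11.5 in AngII and 3.87, 3.79, 3.08, 6.54 and 4.58 in Sham. AngII library 1 overlapped both other groups; AngII against Sham rose by 0.90 (limma adjusted p = 0.0352), while -0.67 for AngII+RvE1 against AngII did not pass (adjusted p = 0.0574).

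Of the 5 sensor genes, 2 rose in AngII against Sham and 3 fell in AngII+RvE1 against AngII. Zbp1, a sensor of left-handed nucleic acids that can start necroptosis, had the second largest differences of the members, after Irf7. It was 2.90, 1.93, 2.14, 2.29 and 2.17 FPKM in AngII+RvE1, 2.28, 4.85, 17.3, 7.13 and 14.7 in AngII and 1.89, 1.16, 1.73, 3.87 and 0.665 in Sham, so that AngII library 1 alone lay among the other groups. The log2 differences were 1.67 (limma adjusted p = 0.0362) for AngII against Sham and -1.38 (adjusted p = 0.0444) for AngII+RvE1 against AngII. Trim25, the ubiquitin ligase that acts on RIG-I, was 4.04, 3.92, 3.39, 3.77 and 4.23 FPKM in AngII+RvE1, 5.04, 5.41, 12.6, 7.65 and 14.2 in AngII and 4.25, 2.96, 3.17, 5.69 and 3.73 in Sham. AngII and AngII+RvE1 did not overlap, while Sham library 4 lay above AngII libraries 1 and 2. Its differences of 0.93 for AngII against Sham (limma adjusted p = 0.0454) and -0.94 for AngII+RvE1 against AngII (adjusted p = 0.0303) both passed.

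The 3 RIG-I-like receptor genes were higher on average in AngII than in the other groups, and 1 of 3 passed a test. Dhx58, which encodes the regulatory receptor LGP2, was 1.81, 1.81, 2.07, 1.49 and 1.58 FPKM in AngII+RvE1, 1.98, 2.34, 7.99, 4.05 and 6.62 in AngII and 1.61, 2.38, 2.04, 2.32 and 1.13 in Sham. It fell by 0.89 on the log2 scale in AngII+RvE1 against AngII (limma adjusted p = 0.0481), and 0.84 for AngII against Sham did not pass (adjusted p = 0.0779). Ddx58, the RIG-I gene, was 4.96, 4.71, 4.37, 4.97 and 4.38 FPKM in AngII+RvE1, 4.61, 5.06, 11.8, 6.47 and 11.9 in AngII and 4.80, 4.12, 3.66, 6.28 and 4.65 in Sham. AngII libraries 3 and 5 were about level with each other and above the rest. Ifih1, which encodes MDA5, was 1.56, 1.74, 1.17, 1.77 and 1.86 FPKM in AngII+RvE1, 1.61, 2.14, 3.73, 2.66 and 2.94 in AngII and 1.60, 1.40, 1.51, 2.32 and 1.04 in Sham. Neither gene passed in either comparison: the log2 differences for AngII against Sham were 0.58 (Ddx58) and 0.48 (Ifih1), and those for AngII+RvE1 against AngII -0.57 (Ddx58) and -0.44 (Ifih1), at limma adjusted p between 0.0976 and 0.121.

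The OAS family is known for enzymes that bind double-stranded RNA and make the 2-5A messenger of RNase L, an activity that mouse Oasl1 lacks. Its genes lie in 2 clusters on chromosome 5. Of 3 tested, 1 rose in AngII against Sham and 1 fell in AngII+RvE1 against AngII. Oas1a was 1.55, 1.82, 1.23, 1.82 and 1.65 FPKM in AngII+RvE1, 1.35, 2.84, 10.4, 4.76 and 5.99 in AngII and 1.18, 0.760, 0.873, 1.69 and 0.864 in Sham, and AngII library 1 alone overlapped the others. It rose by 1.37 against Sham (limma adjusted p = 0.0326), with -1.02 for AngII+RvE1 against AngII short of the threshold (adjusted p = 0.0512). Of its 50-base stretches 57.6% also occur in Oas1g, so its level is uncertain where reads could be shared. Oas2 was 0.778, 1.44, 0.479, 0.853 and 0.556 FPKM in AngII+RvE1, 1.19, 2.17, 5.90, 3.34 and 5.26 in AngII and 0.600, 1.24, 0.830, 2.06 and 1.76 in Sham. It fell in AngII+RvE1 against AngII (log2 difference -1.23, limma adjusted p = 0.0237), having entered the test only through AngII, while 0.91 for AngII against Sham did not pass (adjusted p = 0.0783). Oasl2 lay at 3.43 to 6.26 FPKM in AngII+RvE1, 6.16 to 11.5 in AngII and 1.60 to 9.61 in Sham and passed neither test. The 2 untested genes were near the floor outside AngII. Oas3 was at most 0.169 FPKM in AngII+RvE1, 0.113, 0.220, 2.60, 0.607 and 1.51 in AngII and at most 0.198 in Sham. Oasl1 was at most 0.705 FPKM in AngII+RvE1, 0.454, 0.928, 6.60, 1.79 and 5.46 in AngII and at most 0.845 in Sham.

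Among the 4 genes whose products block translation, 1 rose in AngII against Sham and 0 fell in AngII+RvE1 against AngII. In the latter 2 had an unadjusted p under 0.05 in limma, beside 19.1% of all genes as lower. Ifit1, which binds viral RNA that lacks cap methylation, was 2.28, 2.56, 1.76, 2.26 and 1.83 FPKM in AngII+RvE1, 2.47, 2.81, 4.14, 3.80 and 5.24 in AngII and 0.819, 1.05, 1.65, 3.48 and 1.14 in Sham. Sham library 4 lay above AngII libraries 1 and 2, and the other 4 Sham libraries below every AngII library. The gene rose by 0.89 against Sham (SE 0.22, limma adjusted p = 0.0440), with -0.56 for AngII+RvE1 against AngII (adjusted p = 0.116). Its neighbour Ifit3, within the same 99.5 kb of chromosome 19, was 6.54, 5.10, 5.06, 6.62 and 6.46 FPKM in AngII+RvE1, 4.97, 9.83, 15.7, 12.2 and 11.5 in AngII and 4.32, 4.27, 2.87, 9.85 and 2.75 in Sham. With log2 differences of 1.07 for AngII against Sham (limma adjusted p = 0.0535) and -0.70 for AngII+RvE1 against AngII (adjusted p = 0.124) it passed neither test, and 51.2% of its 50-base stretches also occur in Ifit3b. Ifit2, the third gene there, and Eif2ak2, which encodes the kinase PKR, were at group means of 2.29 to 4.16 FPKM and had the smallest differences of this set, 0.25 and 0.27 for AngII against Sham.

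Isg15, a ubiquitin-like protein attached to other proteins, and Usp18, the protease that removes it and dampens IFNAR signalling, passed neither test. Isg15 was 4.72, 5.58, 5.57, 8.60 and 5.65 FPKM in AngII+RvE1, 3.78, 5.71, 12.6, 6.69 and 12.0 in AngII and 6.21, 3.35, 5.29, 5.95 and 3.06 in Sham. The 3 groups overlapped, and AngII library 1 lay below every AngII+RvE1 library. Its log2 differences were 0.60 (limma adjusted p = 0.180) for AngII against Sham and -0.29 (adjusted p = 0.507) for AngII+RvE1 against AngII. Usp18 was 1.41, 1.51, 1.70, 1.75 and 1.90 FPKM in AngII+RvE1, 2.07, 2.27, 7.14, 2.97 and 8.61 in AngII and 1.37, 1.56, 1.47, 2.49 and 1.07 in Sham. No AngII+RvE1 library reached the lowest AngII library, yet the log2 difference of -0.92 stayed just short of the threshold (limma adjusted p = 0.0539), as did 0.97 for AngII against Sham (adjusted p = 0.0640).

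Of the 4 restriction factor genes measured, 0 rose in AngII against Sham and 1 fell in AngII+RvE1 against AngII. In AngII against Sham 2 had an unadjusted p under 0.05 in limma, beside 19.7% of all genes as higher. Bst2 encodes tetherin, which holds budding virus at the membrane, and was among the most abundant members. It was 28.7, 24.7, 28.8, 32.9 and 45.8 FPKM in AngII+RvE1, 36.2, 44.0, 103, 68.5 and 78.5 in AngII and 41.4, 20.1, 30.1, 38.7 and 25.6 in Sham. AngII libraries 3, 4 and 5 lay above every library of the other groups; the fall of 0.95 in AngII+RvE1 against AngII passed (limma adjusted p = 0.0452) and 1.01 for AngII against Sham did not (adjusted p = 0.0559). Rsad2, which encodes viperin, was 4.29, 2.03, 2.56, 5.14 and 4.06 FPKM in AngII+RvE1, 3.77, 2.90, 7.54, 9.19 and 4.21 in AngII and 2.37, 2.13, 2.56, 2.79 and 1.93 in Sham. AngII and Sham did not overlap, but 0.87 did not pass (limma adjusted p = 0.0658). Its neighbour Cmpk2, a nucleotide kinase gene within the same 37.1 kb of chromosome 12, was 2.96, 2.83, 2.65, 3.01 and 2.24 FPKM in AngII+RvE1, 3.46, 2.07, 5.24, 5.57 and 5.02 in AngII and 2.16, 2.71, 2.79, 5.22 and 2.52 in Sham. AngII library 2 held the lowest Cmpk2 value of all 15 libraries, and the gene passed neither test (log2 difference 0.36 for AngII against Sham, limma adjusted p = 0.296, and -0.45 for AngII+RvE1 against AngII, adjusted p = 0.177). Samd9l passed neither.

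Among the 3 PARP genes, which encode ADP-ribosyltransferases, Parp9 rose in AngII against Sham and Parp14 fell in AngII+RvE1 against AngII. Parp9 was 7.03, 6.44, 6.83, 6.87 and 6.67 FPKM in AngII+RvE1, 7.14, 7.55, 13.8, 10.9 and 15.5 in AngII and 6.43, 5.05, 5.96, 7.24 and 5.76 in Sham. AngII did not overlap AngII+RvE1, and only AngII library 1 lay within Sham. The log2 differences were 0.71 (limma adjusted p = 0.0421) for AngII against Sham and -0.57 (adjusted p = 0.0551) for AngII+RvE1 against AngII; 9.40% of its exon bases lie under exons of Dtx3l on the other strand, and the sources used here do not say that counting used strand. Parp14 was 2.41, 2.71, 1.56, 3.56 and 3.01 FPKM in AngII+RvE1, 3.41, 3.43, 9.67, 5.28 and 11.3 in AngII and 3.35, 1.96, 2.11, 3.64 and 2.35 in Sham. AngII libraries 1 and 2 lay within the ranges of both other groups, and the differences were 0.94 for AngII against Sham (limma adjusted p = 0.0673) and -0.95 for AngII+RvE1 against AngII (adjusted p = 0.0465). Parp12 had the smallest difference of the tested members in AngII+RvE1 against AngII, at 6.17 to 6.86 FPKM in AngII+RvE1, 6.86 to 8.43 in AngII and 4.88 to 7.51 in Sham.

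Of the 6 other induced genes 2 rose in AngII against Sham and 5 fell in AngII+RvE1 against AngII. Xaf1, whose product binds the apoptosis inhibitor XIAP, was 4.14, 3.82, 4.68, 4.45 and 3.34 FPKM in AngII+RvE1, 4.76, 5.18, 10.5, 8.17 and 9.12 in AngII and 3.51, 2.39, 2.94, 4.95 and 3.15 in Sham. Only Sham library 4 reached into the AngII range, and the differences of 0.93 for AngII against Sham (limma adjusted p = 0.0263) and -0.70 for AngII+RvE1 against AngII (adjusted p = 0.0419) passed. Rtp4, a receptor transporter protein gene, was 5.91, 6.33, 5.37, 7.10 and 5.69 FPKM in AngII+RvE1, 7.57, 9.10, 15.5, 9.85 and 13.9 in AngII and 6.48, 5.66, 5.83, 7.40 and 3.94 in Sham. Every AngII library lay above all 10 others, with differences of 0.81 for AngII against Sham (limma adjusted p = 0.0319) and -0.74 for AngII+RvE1 against AngII (adjusted p = 0.0264); 11.6% of its 50-base stretches also occur in the predicted gene Gm45338.

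Ifi44 was 0.910, 0.664, 0.518, 1.44 and 0.696 FPKM in AngII+RvE1, 1.54, 1.55, 3.52, 2.09 and 2.96 in AngII and 0.831, 0.513, 1.004, 1.82 and 0.917 in Sham. AngII+RvE1 lay wholly below AngII (log2 difference -0.83, limma adjusted p = 0.0261), though the gene entered the test only through AngII, and 0.72 for AngII against Sham did not pass (adjusted p = 0.0605). Trim30a, a TRIM-family gene, was 2.12, 2.22, 1.52, 2.82 and 2.23 FPKM in AngII+RvE1, 2.67, 3.21, 16.3, 5.80 and 14.7 in AngII and 2.25, 1.83, 2.70, 3.35 and 2.02 in Sham. AngII libraries 3 and 5 stood far above the rest, and the difference of -1.30 for AngII+RvE1 against AngII passed (limma adjusted p = 0.0421) while 1.20 for AngII against Sham did not (adjusted p = 0.0733). Lgals3bp, a secreted galectin-binding glycoprotein, was 28.7, 40.8, 21.8, 21.8 and 19.3 FPKM in AngII+RvE1, 33.9, 42.9, 96.4, 50.01 and 65.5 in AngII and 33.6, 36.5, 24.5, 49.3 and 22.5 in Sham. It fell by 1.05 in AngII+RvE1 against AngII (limma adjusted p = 0.0372), with 0.74 for AngII against Sham (adjusted p = 0.122). With Bst2 and Ifi35 it was one of 3 members above 10 FPKM on average in Sham. Ifi35, at 17.5 to 28.0 FPKM in AngII+RvE1, 19.5, 20.7, 32.3, 28.8 and 32.7 in AngII and at most 21.6 in Sham, passed neither test, and 16.8% of its exon bases lie under exons of Gm11626 on the other strand.

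**Figure D5:**
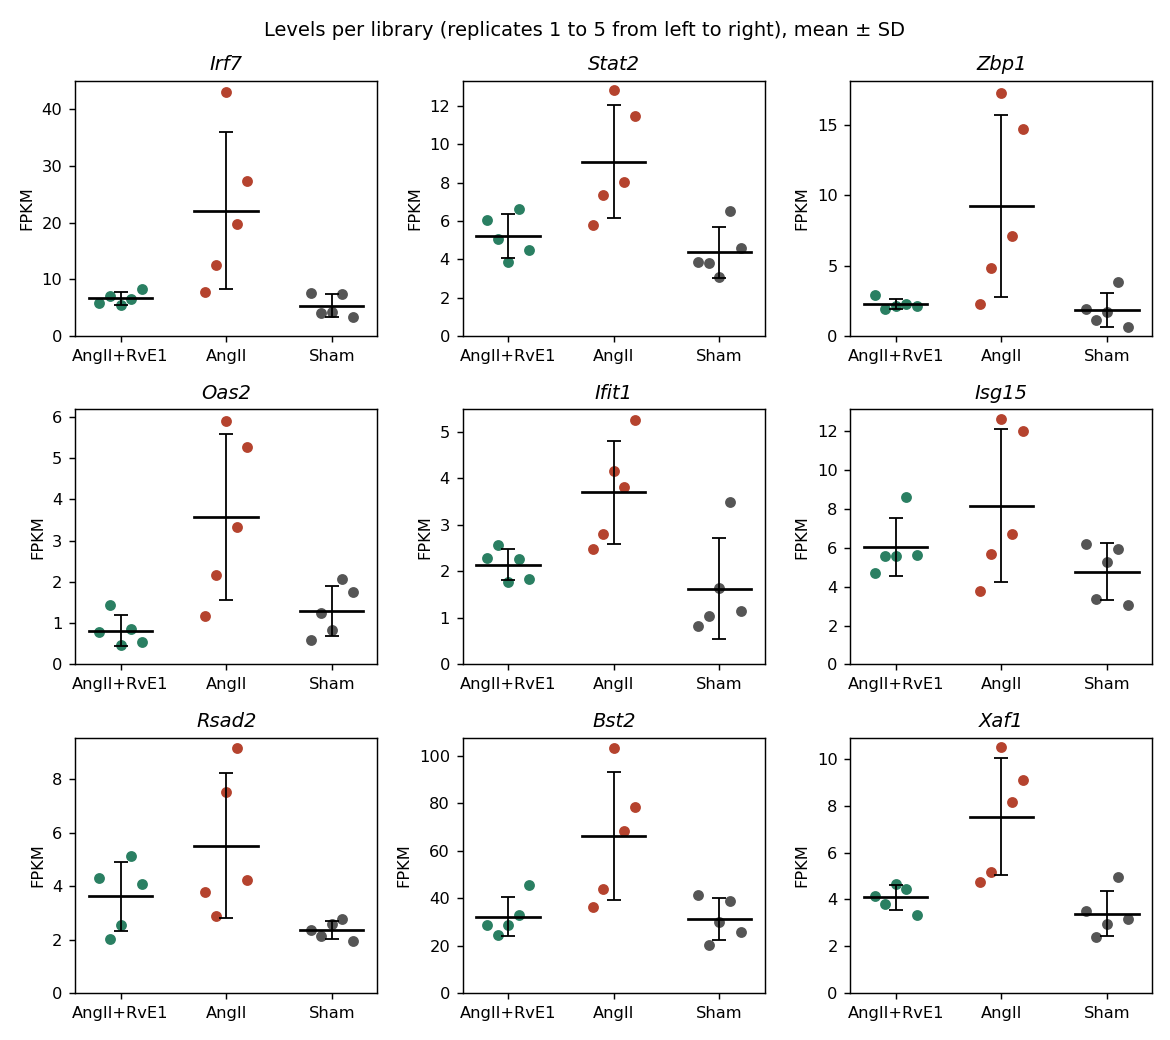
FPKM of 9 genes, 1 or 2 from each role except the PARP family, in each library. Points are libraries 1 to 5 from left to right within a group, horizontal lines are means and error bars are SD (n = 5). AngII library 1 lies at the bottom of the AngII points for 8 of the 9 genes, near the level of the other groups.

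The signalling pathway upstream was examined in the same fit. Of 20 interferon ligand genes 0 reached the level for testing. Ifnb1 and 18 others were listed at 0 in all 15 libraries, and Ifng, which encodes interferon gamma, was at most 0.540 FPKM, in AngII library 5. Ifngr1, the ligand-binding chain of the interferon gamma receptor, was 34.9, 35.7, 31.6, 31.2 and 40.1 FPKM in AngII+RvE1, 52.8, 43.8, 79.7, 59.7 and 70.3 in AngII and 36.9, 29.1, 31.4, 40.9 and 35.3 in Sham. AngII lay above both other groups without overlap, AngII libraries 1 and 2 included. The gene rose in AngII against Sham (log2 difference 0.78, limma adjusted p = 0.0193) and fell in AngII+RvE1 against AngII (-0.78, adjusted p = 0.0159). The chains of the type I receptor did not pass: Ifnar1 differed by 0.50 for AngII against Sham (limma adjusted p = 0.0757) and by -0.41 for AngII+RvE1 against AngII (adjusted p = 0.1002), and Ifnar2 by 0.12 for AngII against Sham and by -0.22 for AngII+RvE1 against AngII.

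Of 12 tested genes of the pathway that switches on interferon genes, 0 were called in either comparison by limma, and 6 and 7 had an unadjusted p under 0.05, beside 19.7% of all genes as higher in AngII against Sham and 19.1% as lower in AngII+RvE1 against AngII. Irf3, the first factor to act in that pathway, differed by 0.27 (limma adjusted p = 0.235) for AngII against Sham and -0.28 (adjusted p = 0.209) for AngII+RvE1 against AngII. Irf8, a factor of myeloid and B cells, was at most 2.44 FPKM in AngII+RvE1, 2.04, 2.08, 51.2, 16.3 and 66.8 in AngII and at most 2.88 in Sham. Of 10 negative regulators 0 rose in AngII against Sham, and 6 had an unadjusted p under 0.05 in limma, beside 19.7% of all genes as higher. In AngII+RvE1 against AngII 4 fell, beside 4.31% of all genes called lower. The 4 were Irf2 (-0.88, limma adjusted p = 0.0359), Nlrc5 (-1.13, 0.0451), Ptpn6 (-2.62, 0.0461) and Samhd1 (-1.25, 0.0462). Ptpn6, the phosphatase SHP-1 of blood cells, was at most 2.80 FPKM in AngII+RvE1, 2.17, 2.75, 71.8, 21.1 and 84.6 in AngII and at most 3.57 in Sham. Its 3 high values lay in the libraries with high lymphocyte markers.

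Of 40 further tested interferon-stimulated genes, 4 rose in AngII against Sham and 12 fell in AngII+RvE1 against AngII. Over all genes 2.36% were called higher and 4.31% lower in these comparisons. An unadjusted p under 0.05 in limma, in either direction, was reached by 29 and 25 of the 40. Over all 12603 genes it was reached by 3307 and 3652. Those that rose were the guanylate-binding protein gene Gbp3 (log2 difference 0.96, limma adjusted p = 0.0178), Parp10 (0.64, 0.0369), and Ifi205 and Ifi204 (1.39 and 1.13, 0.0382 and 0.0384), DNA-binding proteins of the HIN-200 family. The 4 smallest adjusted p in AngII+RvE1 against AngII belonged to that family: Ifi205 (-1.74, limma adjusted p = 0.0151), Ifi204 (-1.18, 0.0227), Mndal (-1.82, 0.0249) and Ifi203 (-1.54, 0.0298). Ifi205 was 2.06, 3.65, 1.38, 1.89 and 1.68 FPKM in AngII+RvE1, 5.22, 5.42, 19.6, 9.61 and 11.5 in AngII and 2.49, 1.82, 2.50, 6.82 and 2.31 in Sham. Its AngII libraries lay above every AngII+RvE1 library, libraries 1 and 2 included, while Sham library 4 reached above AngII libraries 1 and 2.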

How the data were processed

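The file holds 1 normalised value per gene and library, deposited by the authors without a named unit and treated here as FPKM. Its values have decimals, and over 2921 genes the lowest value above 0 fell with exon length (Spearman rho -0.445, across genes, a description), but scaling to length was not stated. RNA came from an RNeasy kit and libraries from a SMARTER mRNA-Seq kit, per the labels' protocols. The build is mm10, per the submitters' processing notes; for the aligner, quantifier and annotation the sources used here give nothing. Relative values mean that a gene's level also moves with the share taken by other transcripts.

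Values were transformed as log2(FPKM + 1) and genes at 1 or more in at least 5 libraries kept. limma-trend (limma 3.58.1, R 4.3.3) fitted 1 mean per group over all 15 libraries, with 3 two-sided contrasts and Benjamini-Hochberg adjustment over 12603 genes at 0.05; the procedure was tested on simulated data. Members and lists were chosen with earlier results of these data known. Named were every called member, a fixed set of others, and up to 4 called genes per list of interferon genes. Called cell type markers were not named. Of 10 macrophage markers 5 rose in AngII against Sham and 7 fell in AngII+RvE1 against AngII, beside 2.36% and 4.31% of all genes. Of 7 smooth muscle markers 1 fell and 7 rose in these comparisons, beside 0.809% and 4.21% of all genes. Of the 3 B cell and 7 T cell markers tested 0 were called. The list of receptor and kinase genes holds a gene that is not reported here, so no count is given for it. Of the list symbols, 2 were matched through a synonym. Alternatives were an added value of 0.1, no filter, median-ratio scaling, a fit of 2 groups alone, a block for the replicate number, array weights, each library left out, AngII libraries 3, 4 and 5 left out, and a lymphocyte marker covariate. Promoters and coordinates came from RefSeq on GRCm38.p6, and shared sequence from GENCODE transcripts, with Python 3.11.15.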

Additional observations from a re-analysis of the deposited data

Results flagged for a closer look

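In all, 99 sets of values, each from the 5 libraries of 1 group, were examined for a library far from the other 4, and 2 stood out. Chance gives about 1 in 20. Parp12 was 8.43 FPKM in AngII library 3, against 6.86 to 7.16 FPKM in the other 4 AngII libraries; the gap was 0.798 of the group's range on the log2 scale. Cmpk2 was 5.22 FPKM in Sham library 4, against 2.16 to 2.79 FPKM in the other 4 Sham libraries, a gap of 0.734 of the range. The critical value for 5 libraries is 0.71. Sham library 4 held the highest Sham value of 25 of the 32 measured members.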

How the results depend on the processing

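The values in this paragraph are counts of members higher in AngII against Sham, then lower in AngII+RvE1 against AngII, where the full fit gave 10 and 13. They were 0 and 0 with no filter on low values (25 and 21 at an unadjusted p under 0.05 in limma, as were 17.4% and 15.9% of all genes), 0 and 8 with only the 2 groups compared (24 and 23, and 14.8% and 18.9% of all genes), 1 and 2 with the replicate block, and 21 and 25 with array weights. Calls over all genes moved too, to 72 higher and 164 lower with the block, at unchanged member medians of 0.88 and -0.70, and to 2104 higher (16.7%) and 2967 lower (23.5%) with array weights, at medians of 0.71 and -0.67. Leaving out 1 library at a time gave 0 to 22 and 0 to 20. Of all genes, 0.457% to 10.8% were then called higher and 0.408% to 10.3% lower. Without AngII libraries 3, 4 and 5 the counts were 0 and 0 and the medians 0.30 and -0.23; with the lymphocyte covariate they were 0 and 0, with medians of 0.46 and -0.31. An added value of 0.1 gave 10 and 12, and median-ratio scaling 10 and 15. That scaling moved the median of all genes in AngII against Sham to -0.03, against 0.11, and the calls over all genes to 248 higher and 336 lower, against 298 and 102; in AngII+RvE1 against AngII it gave 854 higher and 467 lower, against 531 and 543. All 30 members kept their signs in both comparisons under it, at medians of 0.74 and -0.59.

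Signs reversed for a few members without AngII libraries 3, 4 and 5: in AngII against Sham Eif2ak2 (-0.053), Cmpk2 (-0.10) and Samd9l (-0.14), and in AngII+RvE1 against AngII Eif2ak2 (0.12), Isg15 (0.29), Rsad2 (0.051), Cmpk2 (0.0093), Samd9l (0.18) and Ifi35 (0.078). With the lymphocyte covariate Eif2ak2 (0.11), Isg15 (0.29), Samd9l (0.12) and Ifi35 (0.026) did so in AngII+RvE1 against AngII. None of these was called in any of these fits. Fewer samples are used without the 3 libraries, and more genes are adjusted over with no filter; otherwise the cause was not tested. The values gave no general sign that the replicate numbers pair the libraries, and cannot settle whether they do. Same-number deviations correlated at -0.41 to 0.52, over 0.1 in 4 of 15 pairs, and 2 of 15 correlated best with their own number. Read depth is unknown, so counting error cannot be given.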

Other observations

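Siglech, a surface lectin of plasmacytoid dendritic cells, which are known as strong producers of type I interferon, was 0.214 to 0.628 FPKM in AngII+RvE1, 0.402, 0.328, 21.1, 8.25 and 24.3 FPKM in AngII libraries 1 to 5, and 0.446 to 1.54 FPKM in Sham. Siglech was below the level for testing. The 3 tested markers of that cell type differed by -0.57 to 1.30 for AngII against Sham. For AngII+RvE1 against AngII they differed by -0.81 to 1.72. In limma 1 of the 3 rose in AngII against Sham, beside 2.36% of all genes, and 0 were called in AngII+RvE1 against AngII. Of the 8 markers of that cell type measured, 4 had AngII libraries 3, 4 and 5 as their 3 highest. Cox6a2, a marker of that cell type that heart muscle also expresses, reached 94.3, 172 and 82.0 FPKM in single AngII+RvE1, AngII and Sham libraries, so the summed list does not follow Siglech. The 5 neutrophil markers summed to 5.73 to 24.9 FPKM in AngII+RvE1, 5.73 to 266 in AngII and 4.83 to 42.6 in Sham, with the 266 FPKM in AngII library 3 and 34.2 or less in the other 4 AngII libraries.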
